A study of Mus musculus with 14 samples.

Results

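The loss of Cugbp1 was compared between brain and skeletal muscle by setting the knockout (KO) effect in brain against the KO effect in muscle. For each gene the quantity was the KO minus wild-type (WT) difference in brain minus the KO minus WT difference in muscle, on the log2 scale. A value above 0 means that KO stood higher relative to WT in brain than it did in muscle, and a value below 0 means the reverse. All 14 arrays of the series entered the comparison, with 4 KO and 4 WT arrays of brain and 3 KO and 3 WT arrays of muscle. Each array held RNA of 1 mouse tissue sample taken at 1 day of age, without any treatment. The KO mice, on a C57BL6 background, came from ES cells of the BayGenomic collection in which a trap vector sits ahead of the start codon of Cugbp1 (current symbol Celf1), and untreated WT mice of the same background were the controls. A trap of this kind interrupts a transcript and need not remove it. The labels name no brain region, muscle, litter or sex, and do not state whether brain and muscle of a number came from 1 mouse.

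Of 21893 genes tested, 15806 had a mean intensity of 50 or more in at least 1 of the 4 groups, and those genes are described here. Prl and Gjd3 lay just above that limit, both with a highest group mean of 50.01, and Brip1 at 49.91 and Tm4sf4 at 49.89 lay just below it. Intensities quoted are the deposited values of 1 probe, without the scaling used for the tests, so they are compared only between samples and never between genes. Fold changes and tests used log2 intensities minus the 75th percentile of the array. A group is called separated from another where the scaled levels of its arrays all lie on 1 side of the other's.

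Celf1 encodes CUGBP1, a protein that binds GU-rich elements in RNA and acts in alternative splicing, mRNA decay and translation. It is best known in skeletal muscle, where its level is raised in myotonic dystrophy, and it belongs to the CELF family, whose other members are largely neuronal. Probes on these arrays report RNA levels, so a change in splicing alone can pass unseen.

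Both tissues matched their labels. The summed intensity of 15 fast fibre genes was 1981 to 4419 on brain arrays and 1271418 to 1951613 on muscle arrays. The summed intensity of 18 neuronal genes was 256227 to 337496 on brain arrays and 18915 to 34863 on muscle arrays. Arrays correlated at 0.986 to 0.994 within brain and 0.968 to 0.987 within muscle, and the median standard deviation of a gene within genotype was 0.20 in brain and 0.38 in muscle (log2).

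Celf1 itself was the first gene examined. Its probe read 2086, 1637, 1698 and 1706 on the KO arrays of brain, against 4854, 6961, 5318 and 5969 on the WT arrays. In muscle it read 758.3, 498.4 and 527.8 on the KO arrays, against 3104, 4696 and 3099 on the WT arrays. No KO array reached any WT array of its tissue. KO levels were 30.6% of WT in brain and 14.6% of WT in muscle, or log2 fold changes of -1.71 (adjusted p = 0.00542 in limma) and -2.77 (adjusted p = 5.35e-05 in limma). In brain 0 genes passed with the array number as a replicate block within tissue, or without WT brain arrays 3 and 4. The brain call of Celf1 was thus lost in those 2 fits. These fits pool the spread of both tissues, and the standard deviation of Celf1 was 0.0585 in brain and 0.346 in muscle (log2). Celf1 fell in both tissues. The difference between these falls was 1.06 ± 0.26 (SE, 95% interval 0.50 to 1.63), with an unadjusted p of 0.00143, which missed the threshold once adjusted for all genes (adjusted p = 1.00 in limma). The other 2 Celf1 probes gave differences of 1.99 ± 0.34 and 1.35 ± 0.22 (SE), in the same direction. RNA that the probes detect remained in KO brain and KO muscle, and the share that remained was higher in brain with each of the 3 probes.

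Across the genome, few genes responded differently in the 2 tissues beyond the spread between arrays. In limma, 2 of 21893 genes passed an adjusted p of 0.05 for the difference (0.00914% of those tested), 0 higher and 2 lower. They were Rab6b and Ppp1r14d, and both rose in KO muscle and did not pass in brain. In the same model 2 genes passed in brain (0.00914%), of which Celf1 was the 1 described gene, and 9 genes passed in muscle (0.0411%), of which 6 were described. Those 6 calls in muscle draw on the spread of the brain arrays as well. With muscle fitted alone, a fit added after seeing the data, none of the 6 passed (adjusted p of 0.215 to 1.00 in limma), and with weights by tissue Celf1 and Rab6b passed and Ppp1r14d, Gchfr, Caps2 and Cplx1 did not (0.0636 to 0.50). At an unadjusted p under 0.05 there were 676 genes (3.09%), with 324 above 0 and 352 below 0. Of the described genes, 370 lay under that p, with 104 above 0 and 266 below 0. The genes below the intensity limit thus held most of those above 0.

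**Figure D1:**
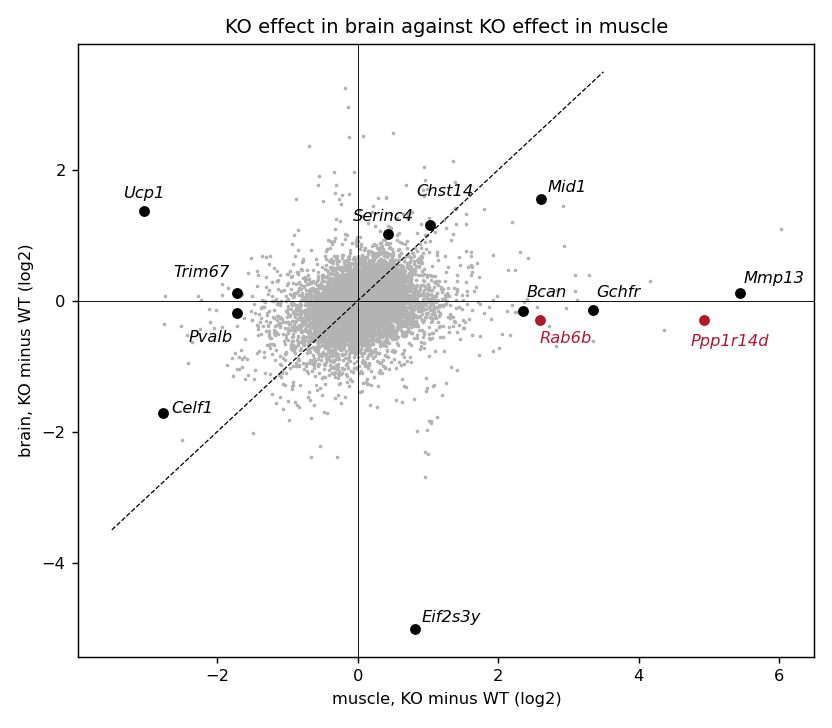
Each grey point is 1 of 15806 described genes, with the KO minus WT log2 fold change in muscle on the horizontal axis and in brain on the vertical axis. The dashed line marks equal effects, red points mark the 2 genes that passed the test of the difference, and Celf1 lies at -1.71 in brain and -2.77 in muscle.

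Rab6b encodes a Rab GTPase of the Golgi apparatus that is expressed mainly in neurons, where it acts in retrograde transport. Its probe read 29340, 26610, 30340 and 30060 on the KO arrays of brain, against 30080, 34900, 35760 and 40240 on the WT arrays. In muscle it read 912.7, 972.7 and 997.2 on the KO arrays, against 138.3, 168.6 and 121.8 on the WT arrays. The brain groups overlapped in intensity, while the muscle groups lay far apart and each varied little. The log2 fold change was -0.29 in brain (adjusted p = 0.998 in limma) and 2.60 in muscle (adjusted p = 1.41e-05 in limma), a 6.05-fold higher level in KO muscle. The difference between the tissues was -2.89 ± 0.21 (SE, adjusted p = 0.000112 in limma). Even so, KO muscle stayed far below KO brain on this probe, with means of 29090 in KO brain and 960.9 in KO muscle. Rab6b lies on chromosome 9 and was measured by 1 probe.

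Ppp1r14d encodes an inhibitor of protein phosphatase 1 that is regulated by phosphorylation. On the KO arrays of brain its probe read 3.65, 3.34, 3.73 and 3.41, against 3.17, 3.33, 3.25 and 9.55 on the WT arrays. In muscle the KO arrays read 178.9, 49.63 and 102.8, against 2.97, 2.78 and 2.73 on the WT arrays. The lowest intensity of an array was 2.04 to 3.51, so only the KO muscle arrays carried a signal well above the bottom of the scale. Its log2 fold change was -0.29 in brain (adjusted p = 0.998 in limma) and 4.94 in muscle (adjusted p = 0.00156 in limma). The difference of -5.23 ± 0.64 (SE) passed (adjusted p = 0.0269 in limma), but its size depends on values at the bottom of the scale. With 50 added to every intensity it was -1.42 and did not pass (adjusted p = 0.998 in limma), and the adjusted p ran from 0.00365 to 0.998 over 27 alternatives.

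Gchfr, which encodes the feedback regulator of GTP cyclohydrolase I in tetrahydrobiopterin synthesis, had the next smallest p among genes below 0. Its KO arrays of brain read 535.8, 472.6, 474.9 and 438.1, against 427.8, 951.7, 427.4 and 426.4 on the WT arrays. Its KO arrays of muscle read 878.7, 2987 and 933.3, against 151, 95.6 and 114.3 on the WT arrays. Before scaling the brain groups overlapped through WT array 2 alone, and every KO muscle array exceeded every WT muscle array. The scaled brain levels also overlapped, with means of -1.288 in KO and -1.145 in WT (log2, standard deviations 0.12 and 0.41). The log2 fold change was -0.14 in brain and 3.35 in muscle, where Gchfr rose (adjusted p = 0.00587 in limma). The difference of -3.49 ± 0.52 (SE) did not pass (adjusted p = 0.0898 in limma). Without KO muscle array 2, which has the highest value, it was -2.98 and passed (adjusted p = 0.0225 in limma).

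**Figure D2:**
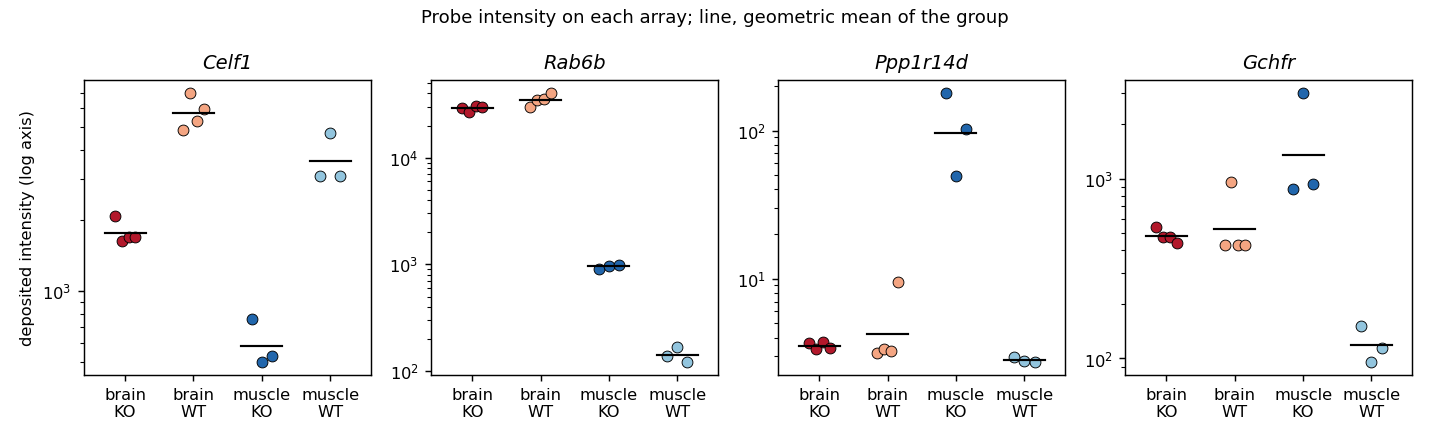
Deposited probe intensity (log axis) of Celf1, Rab6b, Ppp1r14d and Gchfr on each array, by group, with a line at the geometric mean. Celf1 is lower in both KO groups, while the other 3 genes are higher in KO muscle than in WT muscle and show no such step in brain.

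The 250 bases before the start of these 3 genes are shown because the genes shared 1 pattern, higher in KO muscle and not in KO brain. They are from RefSeq on GRCm38.p6, read 5′ to 3′ on the strand of the gene. Capitals mark CAGCTG, a form of the E-box that myogenic and neuronal basic helix-loop-helix factors can bind, chosen after the sequences were seen.
Rab6b, chr9:103111824-103112073, plus strand: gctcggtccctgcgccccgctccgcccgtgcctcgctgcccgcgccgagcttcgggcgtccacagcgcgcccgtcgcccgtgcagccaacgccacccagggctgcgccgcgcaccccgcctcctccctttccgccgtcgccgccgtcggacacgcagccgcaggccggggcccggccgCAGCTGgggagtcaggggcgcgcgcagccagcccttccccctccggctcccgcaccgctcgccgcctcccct
Ppp1r14d, chr2:119229866-119230115, minus strand: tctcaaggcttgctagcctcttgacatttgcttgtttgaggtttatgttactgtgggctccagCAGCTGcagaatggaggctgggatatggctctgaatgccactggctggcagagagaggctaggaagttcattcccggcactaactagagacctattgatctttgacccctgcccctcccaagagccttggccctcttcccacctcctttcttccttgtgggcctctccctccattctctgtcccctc
Gchfr, chr2:119167538-119167787, plus strand: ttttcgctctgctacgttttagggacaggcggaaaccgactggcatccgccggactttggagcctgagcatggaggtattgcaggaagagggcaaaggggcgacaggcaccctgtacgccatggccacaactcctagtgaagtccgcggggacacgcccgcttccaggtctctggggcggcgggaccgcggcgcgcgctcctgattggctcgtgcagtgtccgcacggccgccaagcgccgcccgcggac

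The windows differ in their content. CAGCTG occurs 1 time before Rab6b, 1 time before Ppp1r14d and 0 times before Gchfr, and 13.0% of 32851 such windows of the genome hold it. The GC box GGGCGG, searched on both strands, occurs 1 time before Rab6b, 0 times before Ppp1r14d and 2 times before Gchfr (32.7% of windows), and TATAAA occurs in none of the 3 (12.4% of windows). Rab6b has 40 CpG in its window and Gchfr has 27, both far above the median of 6, while Ppp1r14d has 1. The windows thus range from CpG-rich to CpG-poor, and a match to these letters is a description of the sequence alone.

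Both Ppp1r14d and Gchfr lie on chromosome 2, which also carries Celf1, with 195 protein-coding genes between Celf1 and Gchfr. Ppp1r14d and Gchfr are near neighbours, with 3 protein-coding genes between them. The genes between them did not share their step in muscle. Dnajc17 had log2 fold changes of 0.69 in brain and 0.23 in muscle, Zfyve19 of 0.41 and 0.33, and Gm14137, below the intensity limit, of 0.27 and -0.31. A block of 35 described genes around them, from Pak6 to Mfap1a, had been picked out in earlier work on these data, so its counts describe that choice and are not independent of it. In brain, 16 of the 35 were separated between KO and WT (9 above and 7 below), where 3.86% of all genes were (1.41% above and 2.45% below). In muscle, 8 of the 35 were separated (7 above and 1 below), where 3.96% of all genes were (1.86% above and 2.1% below). The median difference between the tissues over the 35 genes was -0.04, against -0.01 over all described genes.

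Of the 35 genes, 4 had every KO array above every WT array in both tissues (Chst14, Dnajc17, Zfyve19 and Serinc4). Over all genes tested that share was 0.11%. In the block 0 had every KO array below in both tissues, and 0 lay on opposite sides. Those shares over all genes were 0.0685% and 0.0365%, so nothing is read from a 0 in 35 genes. Chst14, a dermatan sulfate sulfotransferase, read 305.1, 212, 254.4 and 170.5 on the KO arrays of brain, against 81.69, 158.7, 91.98 and 90.12 on the WT arrays. In muscle it read 1541, 1532 and 1007 on the KO arrays, against 535.9, 885.9 and 418.5 on the WT arrays. Each KO array exceeded each WT array of its tissue, and the fold changes were close, at 2.23-fold in brain and 2.04-fold in muscle. The difference was 0.13 ± 0.36 (SE, 95% interval -0.65 to 0.91).

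Serinc4, a serine incorporator family member further along the block, read 267.6, 209.6, 260.2 and 243.9 on the KO arrays of brain, against 92.82, 151.7, 107.8 and 130.2 on the WT arrays. In muscle it read 102.5, 123.5 and 156 on the KO arrays, against 61.53, 105.1 and 89.18 on the WT arrays. The muscle intensities overlap before scaling, and the scaled levels do not. Its fold change was 2.03-fold in brain and 1.34-fold in muscle, a difference of 0.60 ± 0.23 (SE, unadjusted p = 0.0209, adjusted p = 1.00 in limma).

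**Figure D3:**
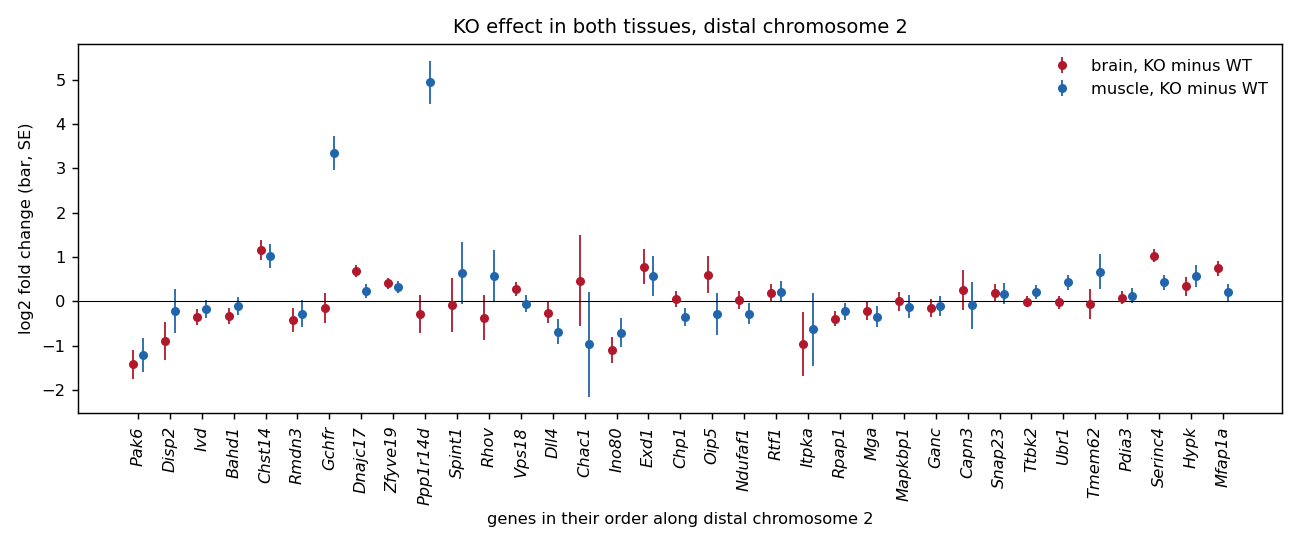
KO minus WT log2 fold change with its SE in brain (red) and muscle (blue) for 35 described genes in their order along distal chromosome 2. Gchfr and Ppp1r14d stand at 3.35 and 4.94 in muscle and near 0 in brain, whereas Chst14 stands above 0 in both tissues.

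Caps2 and Cplx1 were the other described genes with smaller brain than muscle effects that rose in KO muscle in the same model, at log2 fold changes of 1.09 (adjusted p = 0.0144 in limma) and 1.40 (adjusted p = 0.0299 in limma), and neither passed with muscle fitted alone (adjusted p = 1.00 each in limma). Caps2, a calcium-binding calcyphosine, read 7.89, 9.51 and 7.97 on the KO muscle arrays, against 3.16, 4.00 and 3.45 on the WT muscle arrays, close to the bottom of the scale. Its brain arrays read 107.2 to 118.4 in KO and 96.71 to 154.6 in WT. The difference of -1.08 ± 0.19 (SE) did not pass (adjusted p = 0.267 in limma), and it was 0.03 with 50 added to every intensity.

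Cplx1, complexin of the synaptic vesicle fusion machinery, read 15.55, 26.5 and 23.55 on the KO muscle arrays, against 5.89, 10.98 and 5.81 on the WT muscle arrays. Its brain arrays read 7061 to 9322 in KO and 6305 to 9695 in WT. The muscle values thus lay far below those of brain in both genotypes. The difference was -1.30 ± 0.27 (SE) and did not pass (adjusted p = 0.680 in limma), and it was -0.059 with 50 added to every intensity.

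The remaining genes of smallest p below 0 also had higher means in KO than in WT muscle. None passed for the difference in limma, with adjusted p of 0.557 to 1.00. Smpd3, a neutral sphingomyelinase of brain, bone and cartilage, read 485.8, 454.2 and 352.6 on the KO muscle arrays, against 171.5, 97.13 and 59.39 on the WT muscle arrays. Its difference was -1.93 ± 0.42 (SE), with a log2 fold change of 0.01 in brain. Bcan, the brain proteoglycan brevican, had a difference of -2.51 ± 0.49 (SE) with the probe used, and of 0.62 ± 0.99 with its other probe, so its probes disagree in sign. Dlx6os1, a noncoding RNA of forebrain interneurons, had a difference of -1.96 ± 0.47 and Dnali1, an axonemal dynein light chain, of -1.59 ± 0.35 (SE), with means of 117.6 in KO brain and 181.7 in WT brain for Dnali1. Col9a3, a cartilage collagen chain, had a 3.49-fold higher level in KO muscle and a log2 fold change of -0.19 in brain. Bcan, Dlx6os1, Dnali1 and Col9a3 had WT muscle intensities of 2.90 to 11.63. With 50 added to every intensity their differences were -0.61 for Bcan, -0.20 for Dlx6os1, -0.43 for Dnali1 and -0.29 for Col9a3, against -1.48 for Smpd3.

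In the other direction 0 genes passed, and the 10 described genes of smallest p above 0 are given as values. They had differences of 0.79 to 1.84 and adjusted p of 1.00 in limma. Pvalb, parvalbumin, the calcium buffer of fast muscle fibres, read 322.8, 354.9, 290.6 and 273.7 on the KO arrays of brain, against 274.7, 408.4, 415.9 and 306.1 on the WT arrays. In muscle it read 14530, 10980 and 7785 on the KO arrays, against 16850, 42580 and 43250 on the WT arrays. All KO muscle arrays lay below all WT muscle arrays, and the brain arrays overlapped. The difference was 1.53 ± 0.43 (SE), and its other probe gave 1.63 ± 0.44.

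Trim67, a tripartite motif protein of developing neurons, read 6978, 6138, 6058 and 6426 on the KO arrays of brain, against 5501, 7537, 5252 and 5233 on the WT arrays. Muscle values came to 39.08, 31.21 and 20.18 on the KO arrays, against 136.7, 97.3 and 46.98 on the WT arrays. Its difference of 1.84 ± 0.46 (SE, adjusted p = 1.00 in limma) was matched by 1.88 ± 0.39 with its other probe. When the probes of each gene were averaged, Trim67 passed at 1.86 (adjusted p = 0.0159 in limma). Gbe1, the glycogen branching enzyme, had a difference of 0.86 ± 0.26 and Dipk1b, a kinase-like protein of the secretory pathway, of 1.02 ± 0.26 (SE). Neurod6 and Myt1l, transcription factors of neurons, Tcerg1l, Trpc5, a calcium-permeable channel, and Masp1, a protease of the lectin pathway of complement, had muscle intensities of 2.13 to 11.77 in both genotypes. For these 5 genes the difference, 0.79 to 1.25, rests on muscle values near the bottom of the scale, and it was 0.0299 to 0.519 with 50 added to every intensity. Other probes gave -0.26 and 0.32 for Masp1, -0.19 to 0.94 for Myt1l, and 0.10 and 0.12 for Tcerg1l, so those of Masp1 and Myt1l disagree in sign.

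Gene lists describe where the median of a group of genes stood in brain and in muscle, and no list was tested as a set. For each list the median over its described members is given beside that of all 15806 described genes, which was -0.00962 for the difference, -0.00375 for the brain effect and 0.0106 for the muscle effect. Of the members of all lists, Ppp1r14d and Gchfr of the chromosome 2 block and Cplx1 of the neuronal list were the only ones that passed in any of these 3 comparisons in limma. A list score was computed for each array by centring every member on its tissue mean (log2) and averaging the members. In samples of whole tissue, fewer cells of a type and less RNA per cell cannot be told apart.

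**Figure D4:**
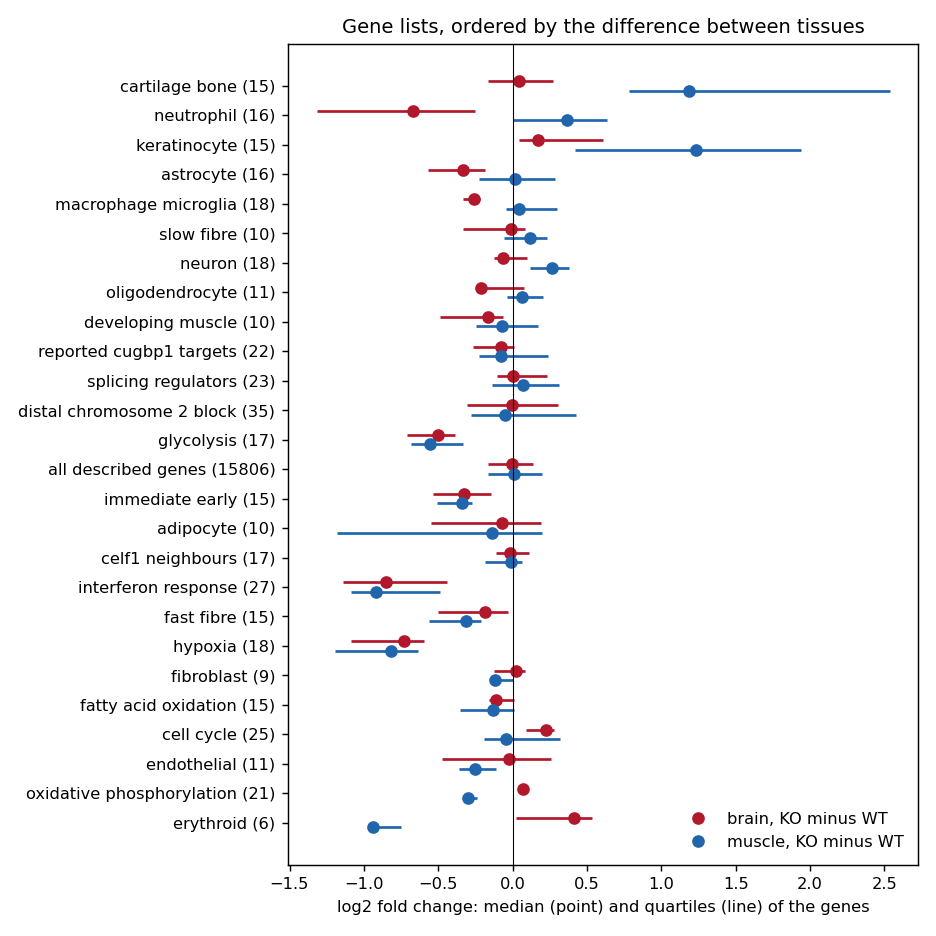
Median (point) and quartiles (line) of the KO minus WT log2 fold change over the described members of each list, in brain (red) and muscle (blue), with the number of members in brackets. Cartilage and bone genes stand at 0.05 in brain and 1.19 in muscle, erythroid genes at 0.41 and -0.94, and interferon response genes at -0.85 and -0.92.

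Genes of oxidative phosphorylation, subunits of the respiratory chain and ATP synthase, had a median difference of 0.35, with 21 of 21 described members above 0 and a range of 0.03 to 0.59. Their median KO effect was 0.07 in brain and -0.30 in muscle. In muscle 21 of 21 members had effects below 0, and 1 of 21 was separated (3.96% of all genes). The unadjusted p of the difference was under 0.05 for 2 of 21 members (3.09% of all genes). Cyc1, cytochrome c1 of complex III, had a difference of 0.59 ± 0.25, and Ndufv1, a subunit of complex I, of 0.55 ± 0.22 (SE, adjusted p = 1.00 each in limma). Ndufb8 and Uqcrc2, of complexes I and III, had differences of 0.51 ± 0.29 and 0.40 ± 0.23 (SE).

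The list score was -0.03, 0.05, 0.02 and 0.11 on the KO arrays of brain, against 0.04, -0.02, -0.08 and -0.09 on the WT arrays. In muscle it was -0.09, -0.37 and 0.07 on the KO arrays, against 0.35, 0.19 and -0.15 on the WT arrays. KO and WT arrays overlapped in both tissues, with KO muscle array 2 the lowest. Under 27 alternatives the median difference stayed above 0, at 0.20 to 0.49, and it was 0.20 both with quantile normalization and without scaling.

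Erythroid genes, which mark red blood cells and their precursors in the samples, had a median difference of 1.02, with 6 of 6 described members above 0. The median effect was 0.41 in brain and -0.94 in muscle. Hba-a1, an alpha globin, read 132300, 93820, 149200 and 115000 on the KO arrays of brain, against 73010, 88820, 92830 and 71430 on the WT arrays. On the muscle arrays its values were 238300, 210500 and 65980 on the KO arrays, against 227000, 157700 and 446700 on the WT arrays. Every KO brain array lay above every WT brain array, whereas the muscle groups overlapped widely. The difference for Hba-a1 was 1.48 ± 0.63 (SE, unadjusted p = 0.0355, adjusted p = 1.00 in limma). Alas2, the erythroid enzyme of haem synthesis, had a difference of 1.60 ± 0.86, and Hbb-b1, a beta globin, of 1.32 ± 0.75 (SE). WT muscle array 3 was the highest for all 3 genes. Without it the median of the list was 0.30, and it was 1.68 without WT muscle array 2, 1.73 without KO muscle array 1 and 0.41 with array weights.

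Neutrophil genes, mainly for granule proteins of granulocytes, had a median difference of -1.18, with 14 of 16 described members below 0. Their median effect was -0.67 in brain and 0.36 in muscle. Mmp9, a gelatinase that neutrophils and bone-resorbing osteoclasts both make, read 207, 73.7, 168.2 and 85.45 on the KO arrays of brain, against 89.64, 242.9, 46.8 and 67.66 on the WT arrays. Muscle arrays gave 242.6, 20.72 and 190.5 on the KO arrays, against 5.48, 10.92 and 11.91 on the WT arrays. Its difference was -2.90 ± 1.10 (SE, unadjusted p = 0.0208), and KO muscle arrays 1 and 3 were high.

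Ngp, neutrophilic granule protein, had a difference of -2.06 ± 0.91, Retnlg, a resistin-like protein, of -2.18 ± 0.92, and Prtn3, proteinase 3, of -1.03 ± 0.35 (SE, adjusted p = 1.00 for all 4 in limma). Mean brain intensities were low, at 11.86 in KO and 36.05 in WT for Ngp and 7.70 and 20.04 for Retnlg. The brain effects of Ngp and Retnlg were -1.515 and -1.549, and their muscle effects 0.548 and 0.627. Over 27 alternatives the weakest differences were -0.58 for Ngp, -0.72 for Retnlg and -0.16 for Prtn3. The neutrophil score was -0.44, -0.06, -0.43 and -0.56 on the KO arrays of brain, against -0.03, -0.04, 1.12 and 0.44 on the WT arrays. In muscle it was 0.05, 0.12 and 0.52 on the KO arrays, against -0.18, -1.12 and 0.60 on the WT arrays. WT brain arrays 3 and 4 were the high ones in brain, and WT muscle array 2 was the low one in muscle. The median was -0.71 without that pair of brain arrays, -0.72 without WT muscle array 2, and -0.57 with 50 added to every intensity.

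Genes of macrophages and microglia, the resident phagocytes of muscle and brain, had a median difference of -0.34, with 18 of 18 described members below 0. The median effect was -0.26 in brain and 0.05 in muscle. Trem2, a lipid receptor of microglia, had a difference of -0.93 ± 0.41 (SE, unadjusted p = 0.0422), and Cx3cr1, the fractalkine receptor, of -0.92 ± 0.49 (SE, adjusted p = 1.00 each in limma). The score was -0.19, -0.06, -0.13 and -0.13 on the KO arrays of brain, against -0.20, 0.21, 0.30 and 0.20 on the WT arrays. In muscle it was -0.50, 0.61 and 0.09 on the KO arrays, against 0.08, 0.09 and -0.37 on the WT arrays. WT brain array 1 lay with the KO arrays. The median came to -0.004 without KO muscle array 2, -0.18 without WT muscle array 3, -0.63 without KO muscle array 1 and -0.09 with array weights.

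Cartilage and bone genes had a median difference of -1.48, with 14 of 15 described members below 0. The median effect was 0.05 in brain and 1.19 in muscle. Mmp13, a collagenase of hypertrophic cartilage and bone, read 676.8, 25.18 and 139.2 on the KO muscle arrays, against 2.90, 2.64 and 2.70 on the WT muscle arrays, and its difference was -5.32 ± 1.62 (SE, adjusted p = 1.00 in limma). Alpl, an alkaline phosphatase of mineralizing bone, read 628.2, 151.3 and 484.9 on the KO muscle arrays, against 56.71, 61.84 and 97.39 on the WT muscle arrays. KO muscle array 2 was the lowest of the 3 for both genes.

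The summed intensity of the list was 1754 to 3295 in KO brain and 1759 to 3388 in WT brain, and it was 1264 to 10496 in KO muscle and 1110 to 2782 in WT muscle. Its score was 2.12, -0.92 and 1.73 on the KO muscle arrays, against -1.44, -0.97 and -0.51 on the WT muscle arrays. KO muscle array 2 thus lay among the WT arrays. Without it the median difference was -2.32, and Alpl at -2.94 and Sp7, a transcription factor of osteoblasts, at -3.39 passed (adjusted p = 0.0169 each in limma). Each of these genes passed in only 1 of the 14 fits that leave out 1 array. Hapln1, a link protein of cartilage matrix, had a difference of -1.72 ± 0.61 (SE). With 50 added to every intensity the median was -0.72. Mmp13 and Sp7 reached the intensity limit in KO muscle alone, at means of 280.4 and 55.89. Entry through that group favours a difference below 0, so the 14 of 15 below 0 are not independent of the limit. The part of skeletal tissue in the samples in the differences of Mmp9, Smpd3 and Col9a3, which were also higher in KO muscle, was not tested.

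Keratinocyte genes, of the skin barrier, had a median difference of -0.76, with 11 of 15 described members below 0. The median effect was 0.17 in brain and 1.23 in muscle. Krt1, a keratin of differentiating epidermis, read 45.41, 124.7 and 9.86 on the KO muscle arrays, against 3.52, 11.1 and 2.78 on the WT muscle arrays. Lor, loricrin of the cornified envelope, read 165.9, 384.9 and 69.1 on the KO muscle arrays, against 39.43, 123 and 25.12 on the WT muscle arrays. KO muscle arrays 1 and 2 were high and array 3 was not, a different pair from the one high in cartilage genes.

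The keratinocyte score was 1.14, 1.60 and -0.71 on the KO muscle arrays, against -0.92, -0.67 and -0.44 on the WT muscle arrays. The summed intensity was 16755 to 19842 in KO brain and 14547 to 21368 in WT brain, and 7818 to 11101 in KO muscle and 5016 to 7124 in WT muscle. The difference was -2.67 ± 0.89 for Krt1, -1.60 ± 0.70 for Lor, -3.86 ± 1.89 for Flg, filaggrin, and -0.70 ± 0.36 for Krt10 (SE, adjusted p = 1.00 each in limma). With 50 added to every intensity it was -0.53 for Krt1, -0.97 for Lor and -2.09 for Flg. Flg reached the intensity limit in KO muscle alone, at a mean of 446.4, and such entry favours a difference below 0. Rab6b read 972.7 on KO muscle array 2, where the cartilage score was -0.92, and 997.2 on KO muscle array 3, where the keratinocyte score was -0.71. The neuronal score was 0.41, -0.03 and 0.01 on the KO muscle arrays, against -0.12, -0.07 and -0.20 on the WT muscle arrays. Of these lists only the neuronal one separated KO from WT in muscle. The part of other tissue in the samples, nerve included, in the Rab6b values was not tested. The median of the keratinocyte list was -1.40 without KO muscle array 3 and -0.42 without KO muscle array 2.

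**Figure D5:**
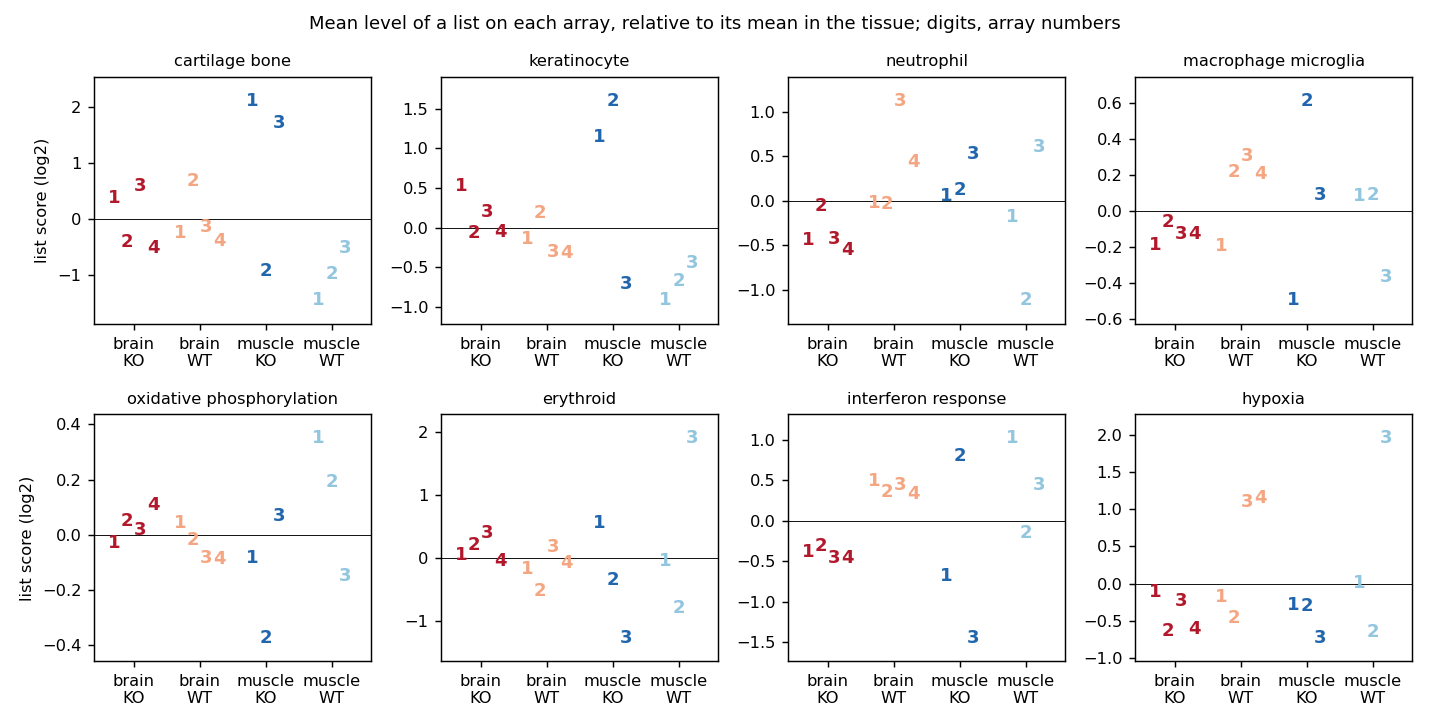
List scores (log2, relative to the mean of the tissue) of 8 lists on each array by group, with digits giving the array number. KO muscle array 2 lies among the WT muscle arrays for cartilage and bone genes, KO muscle array 3 does so for keratinocyte genes, and interferon response scores separate KO from WT in brain alone.

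Neuronal and astrocyte genes lay mostly below 0. The neuronal list had a median difference of -0.29, with 16 of 18 members below 0, and median effects of -0.06 in brain and 0.27 in muscle. Syn1, a synaptic vesicle phosphoprotein, had a difference of -0.35 ± 0.23, and Camk2a, a postsynaptic kinase, of -1.06 ± 0.60 (SE, adjusted p = 1.00 each in limma). The score was 0.41, -0.03 and 0.01 on the KO muscle arrays, against -0.12, -0.07 and -0.20 on the WT muscle arrays. The muscle groups were separated, and KO array 1 was the highest. Without that array the median was -0.10, without WT muscle array 3 it was -0.17, and with 50 added to every intensity it was -0.11.

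The astrocyte list had a median difference of -0.45, with 15 of 16 members below 0, and median effects of -0.33 in brain and 0.01 in muscle. Agt, angiotensinogen, read 207.2, 404.7, 178.1 and 431.3 on the KO arrays of brain, against 204.7, 516.8, 934 and 986.9 on the WT arrays. Gfap, the astrocyte intermediate filament, read 182.3, 297.3, 152.3 and 271.9 on the KO arrays, against 220.8, 457.3, 473.5 and 459.5 on the WT arrays. WT brain arrays 3 and 4 were high for Agt, the same pair as for the hypoxia list. The difference was -1.36 ± 0.81 for Agt and -0.99 ± 0.48 for Gfap (SE, adjusted p = 1.00 each in limma). Other Gfap probes gave differences of -0.17 ± 0.41 and -0.46 ± 0.54 (SE). Their brain effects were -0.22 and -0.71, against -0.84 with the probe used. The median of the list was -0.15 without WT brain arrays 3 and 4, -0.24 without WT muscle array 2, and -0.30 with 50 added to every intensity.

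Interferon response genes had close medians in the tissues and an unequal spread between arrays. The median KO effect was -0.85 in brain and -0.92 in muscle, with 27 of 27 members below 0 in each tissue, and the median difference was 0.06. In brain the KO arrays were below all WT arrays for 19 of the 27 genes, where 2.45% of all genes were. In muscle they were so for 0 of the 27, where 2.1% of all genes were. Isg15, a ubiquitin-like protein induced by type I interferon, read 772, 665.1, 623.5 and 629.5 on the KO arrays of brain, against 1121, 1408, 1180 and 1115 on the WT arrays. The muscle samples had 1231, 2971 and 514.3 on the KO arrays, against 4825, 1812 and 5122 on the WT arrays. The muscle groups overlapped through KO array 2 and WT array 2.

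The difference was 0.83 ± 0.70 for Isg15 (SE, 95% interval -0.69 to 2.35) and 0.67 ± 0.60 for Gbp3, a guanylate-binding protein (SE, 95% interval -0.64 to 1.98). It was -0.83 for Trim30a and -0.71 for Zbp1, whose other probe gave 1.97. Of the 27 members, 15 had differences above 0 and 12 had differences below 0. The interferon score was -0.39, -0.31, -0.46 and -0.46 on the KO arrays of brain, against 0.49, 0.35, 0.44 and 0.34 on the WT arrays. In muscle it was -0.68, 0.80 and -1.44 on the KO arrays, against 1.02, -0.15 and 0.44 on the WT arrays. The list's median difference ran from -0.35 without KO muscle array 3 to 0.58 without KO muscle array 2, so these arrays do not fix its sign.

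Glycolysis and hypoxia genes also had close medians in the tissues. Glycolysis genes had median effects of -0.50 in brain and -0.55 in muscle and a median difference of -0.03, with 8 above 0 and 9 below. Hypoxia genes had median effects of -0.73 in brain and -0.82 in muscle and a median difference of 0.09, with 10 above 0 and 8 below. Eno3, the muscle enolase, had a difference of 0.50 ± 0.26, Egln1, an oxygen-sensing prolyl hydroxylase, of 0.47 ± 0.42, and Loxl2, a lysyl oxidase, of -0.79 ± 0.42 (SE, adjusted p = 1.00 each in limma). Among the other members of smallest p, the glycolysis genes Slc16a3, Tpi1 and Pgam1 had differences of -1.27, -0.51 and 0.41. The hypoxia genes Ero1a and Ankrd37 had differences of 1.21 and 0.91. In brain the hypoxia score was -0.11, -0.64, -0.23 and -0.61 on the KO arrays, against -0.19, -0.47, 1.09 and 1.15 on the WT arrays. In muscle it was -0.28, -0.30 and -0.73 on the KO arrays, against 0.00, -0.65 and 1.95 on the WT arrays. Thus WT brain arrays 3 and 4 and WT muscle array 3 were high, and the other WT arrays lay within or near the KO range. The median difference of the hypoxia list was 0.73 without that pair of brain arrays and -0.75 with array weights. That of the glycolysis list was 0.50 without the pair and -0.40 with array weights, and it changed sign under 10 of 27 alternatives, so neither sign is firm.

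The lists closest to CUGBP1's known biology held genes on both sides of 0. Splicing regulators had a median difference of -0.06, with 9 of 23 above 0 and 14 of 23 below 0, and 0 of 23 with an unadjusted p under 0.05 (3.09% of all genes), from which nothing is read for a list of this size. Elavl3, a neuronal RNA-binding protein, had the smallest p of them, with a difference of 0.52 ± 0.28 (SE), followed by Celf5, a family member of Celf1, at -0.47 ± 0.27. Khsrp, a factor of mRNA decay, had a difference of 0.36 ± 0.22 and Nova2, a neuronal splicing factor, of -0.45 ± 0.30 (SE). Other probes gave -0.40 and 0.16 for Celf5 and -0.06 for Khsrp, so the probes of both genes disagree in sign. Reported CUGBP1 targets had a median difference of -0.16, with 10 of 22 above 0 and 12 of 22 below 0, and 0 with an unadjusted p under 0.05. That median was 0.13 without WT muscle array 1, 0.03 without KO muscle array 3 and -0.30 without KO muscle array 2. Ezr, a linker of membrane and actin, had a difference of -0.64 ± 0.31 and Tnnt2, cardiac troponin T, of -0.68 ± 0.50 (SE). Adjusted p was 1.00 for these 6 genes in limma.

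Genes of contractile fibres had medians of either sign. Fast fibre genes had a median effect of -0.32 in muscle, with 15 of 15 below 0, and a median difference of 0.09, of which Pvalb was the one with an unadjusted p under 0.05. That median ran from -0.17 without WT muscle array 2 to 0.35 without KO muscle array 3. Actn3, alpha-actinin of fast fibres, had a difference of 1.03 ± 0.56 (SE). Slow fibre genes had a median difference of -0.34, which was 0.01 without WT muscle array 3 and -0.15 with array weights. Casq2, the calsequestrin of slow and cardiac muscle, had a difference of -1.39 ± 0.66 (SE). Most of that difference lay in brain, with a log2 fold change of -1.16, against 0.23 in muscle. Brain arrays averaged only 21.46 (KO) and 54.14 (WT) for Casq2, far below muscle arrays at 24810 (KO) and 21210 (WT). Cell cycle genes had median effects of 0.22 in brain and -0.04 in muscle, and a median difference of 0.20 that was -0.37 without KO muscle array 3. The adipocyte list had a median difference of 0.04, which was -0.82 without WT muscle array 1 and 0.65 without WT muscle array 3. Its member Ucp1, uncoupling protein of brown fat, had the highest difference of all described genes at 4.41 ± 2.37 (SE, adjusted p = 1.00 in limma). Ucp1 read 19260, 501.8 and 279.6 on the KO muscle arrays, against 142000, 10700 and 708.3 on the WT muscle arrays. The muscle groups overlapped, and WT array 1 was the highest.

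Genes that moved the same way in both tissues, and those that moved opposite ways, were counted by separation of the arrays. Of the described genes, 22 had every KO array above every WT array in both tissues and 14 had every KO array below. Over all genes tested these counts were 24 (0.11%) and 15 (0.0685%). Of the described genes, 5 of the 22 and 4 of the 14 lie on chromosome 2, or 22.7% and 28.6%, against 7.75% of all described genes. The 4 include Celf1 itself, and 4 of the 5 (Chst14, Dnajc17, Zfyve19 and Serinc4) belong to the block picked out from these data. Across described genes the brain effect and the muscle effect correlated at r = 0.234 (rho = 0.261, n = 15806 genes that share the same arrays), as a description.

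Mid1, a ubiquitin ligase of microtubules and the gene with the largest muscle effect among those above WT in both tissues, was chosen after its values were seen. It read 2347, 677.1, 1019 and 1028 on the KO arrays of brain, against 464.8, 287, 263.3 and 589.9 on the WT arrays. Its muscle probe values were 913.9, 234.7 and 1089 on the KO arrays, against 99.87, 112.5 and 64.87 on the WT arrays. No KO array fell within the WT range of its tissue, and the fold changes were 2.95 in brain and 6.11 in muscle. Mid1 lies on the X chromosome. In brain the arrays low for Xist, the RNA of females given below, had the highest values of their genotype. They were KO array 1 and WT arrays 1 and 4. In muscle KO array 3 and WT array 2, both high for Xist, were the highest. The part of sex in these values was not tested. The difference was -1.05 ± 0.78 (SE, 95% interval -2.75 to 0.65, adjusted p = 1.00 in limma).

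Xpo7, a nuclear export receptor, was above WT in both tissues at log2 fold changes of 0.80 in brain and 0.28 in muscle. Ntsr2, a neurotensin receptor of astrocytes, was below WT in both at -1.04 in brain and -1.70 in muscle, and Il1rapl1, a synaptic organizer, at -0.35 in brain and -1.11 in muscle. Their differences were 0.52 ± 0.34, 0.66 ± 0.65 and 0.76 ± 0.30 (SE, adjusted p = 1.00 each in limma). These genes too were chosen after their values were seen.

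Over all genes, 8 had KO arrays on opposite sides of WT in the tissues (0.0365%), and 3 of them were described genes. Foxb1, a forkhead factor of the developing hypothalamus and midbrain, read 539.1, 400.4, 436.7 and 406.5 in KO brain, against 326.1, 425.5, 306.1 and 297.3 on the WT arrays, with separation in scaled levels alone. Its muscle intensities lay at the bottom of the scale, between 2.41 and 2.96 in KO and between 2.89 and 11.22 in WT. Nkiras2, an inhibitor of NF-kappaB signalling, had log2 fold changes of 0.17 in brain and -0.20 in muscle. C77080 had -0.11 in brain and 0.38 in muscle. The differences were 1.31 ± 0.46, 0.37 ± 0.17 and -0.49 ± 0.16 (SE, adjusted p = 1.00 each in limma), and the 3 genes were named after their values were seen.

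Sex differed between arrays. Xist, the RNA of the inactive X chromosome in females, read 2.61 to 3.93 on array 1 of all 4 groups and on WT brain array 4, and 1036 to 2033 on the other 9 arrays. Uty, on the Y chromosome, was high on those same 5 arrays. Eif2s3y, also on the Y chromosome, had no value on KO brain array 1. Its difference of -5.83 ± 4.00 (SE, adjusted p = 1.00 in limma), the lowest of all described genes, was therefore fitted without the 1 KO brain array with high Uty.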

How the data were processed

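RNA of 14 samples was measured on 1-colour Agilent arrays (Cy3) after extraction with the RNeasy Plus mini kit and amplification with the Low Input Quick Amp kit, per the labels' protocols. The deposited table holds linear intensity values from Agilent Feature Extraction, per the submitters' processing notes. The sources used here do not give its version, any scaling or flags. The 75th percentile of the named probes was 883 to 1398 between arrays, so the deposited intensities were not scaled to that percentile. Between 22.2% and 30.4% of probes lay within 2-fold of the array minimum. No depth applies to arrays, and their number limits the precision.

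Of 55681 probes, 30626 carried 1 gene symbol, 0 several and 25055 were not listed in the probe annotation, and 30332 matched a RefSeq gene of GRCm38.p6 for current symbols. Log2 intensities minus the 75th percentile of the named probes of the array were analysed, with the probe of highest mean for each of 21893 genes. Blank cells (129) were left out, and 48 genes had one. limma 3.58.1 in R 4.3.3 fitted 4 group means to all 14 arrays, with empirical Bayes moderation (neither trend nor robust), 2-sided. P-values were adjusted by Benjamini-Hochberg over all genes, with a threshold of 0.05, and they measure only the spread between samples, which the labels do not say came from separate litters. The fit was tested on simulated data in which each gene had the same spread in both tissues, unlike these arrays. That test therefore does not bear on calls that depend on the unequal spread.

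Named genes were Celf1, genes past the threshold, the 10 described genes of smallest p in each direction, the 4 described members of smallest p in each list at most, and sex chromosome genes, without Riken clones or predicted genes. The 26 lists hold 460 genes, 439 of them measured and 417 described. The comparison, lists and genes were chosen with earlier results of these data known. Same-numbered KO and WT arrays correlated in their deviations at -0.0196 to 0.156 in brain and -0.187 to 0.18 in muscle. Same-numbered brain and muscle arrays did so at -0.00899 to 0.264 in KO and 0.163 to 0.363 in WT, where all 3 pairs were over 0.1. As not every KO pair was, and the labels state no pairing, the numbers were not taken as pairs, and a random block over both tissues was an alternative. Alternatives covered scaling, an offset of 50, quantile normalization, probe choice, moderation, array weights, a replicate block and leaving out arrays.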

Additional observations from a re-analysis of the deposited data

Results flagged for a closer look

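Rab6b had a KO effect that differed between the tissues by the test of the difference itself, at -2.89 for brain minus muscle (adjusted p = 0.000112 in limma), with every KO muscle array above every WT muscle array. Ppp1r14d passed the same test at -5.23 (adjusted p = 0.0269 in limma), with all 4 KO brain arrays and all 3 WT muscle arrays near the bottom of the intensity scale.

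The fibroblast list score of WT brain array 2 was 0.616, and its gap to the nearest WT brain array was 0.883 of the range of the 4 arrays, above Dixon's critical value for 4 samples. It was the only one of 90 groups of 4 arrays, over Celf1, the 10 genes of smallest p in each direction and the list scores, to be so far from the others, and chance alone gives about 1 in 20. Among probes without a gene name, 0 of 25055 passed the test of the difference.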

How the results depend on the processing

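Rab6b passed the test of the difference under all 27 alternatives (-3.03 to -2.53, adjusted p 9.18e-06 to 0.0451 in limma). Ppp1r14d passed under 11 of 27 and under 4 of the 14 that leave out 1 array. The count of genes past the threshold for the difference, 2 as reported, was 1 with 50 added to each intensity, without moderation, with array weights, with weights by tissue, with the replicate block and without WT brain arrays 3 and 4. It ran from 1 to 8 when 1 array was left out, with 8 without KO muscle array 2 and 3 without WT muscle array 1. The brain count, 2 as reported, was 1 with described genes alone, with the mean over probes, with trend and robust moderation and without moderation, 5 with weights by tissue and with brain fitted alone, 1885 with array weights, and 0 without WT brain arrays 3 and 4 (417 at an unadjusted p under 0.05 in limma). It ran from 1 to 4 when 1 array was left out. Array weights were 2.47 and 3.74 on WT brain arrays 4 and 3 and 0.24 on WT muscle array 3, and whether they set the count of 1885 was not tested. The muscle count, 9 as reported, was 3 with 50 added, 4 with array weights, 2 with weights by tissue, and 0 with muscle fitted alone (341 at an unadjusted p under 0.05 in limma), a fit chosen after seeing the data. It ran from 7 to 35 when 1 array was left out. The cause of these shifts was not tested.

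With the array number as a replicate block within tissue, 1 gene passed for the difference, 0 for brain (974 at an unadjusted p under 0.05 in limma) and 6 for muscle. As a random block over both tissues the counts were 2, 2 and 9. The difference for Celf1 was 0.88 to 1.32 when 1 array was left out.

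Without scaling, the median over all genes was -0.118 for the difference and 0.137 for muscle, against 0.0269 and -0.027 as reported. Small differences changed sign. Chst14 was -0.0175 without scaling, -0.108 with 50 added, -0.00818 without WT brain arrays 3 and 4, and -0.076 to 0.352 when 1 array was left out. Zfyve19 was -0.0641 without scaling, -0.0385 without WT brain arrays 3 and 4, and -0.0055 to 0.135 when 1 array was left out. With 50 added, Caps2 was 0.0316, Ntsr2 -0.203 and Il1rapl1 -0.0591. Smpd3 passed at -2.41 without WT muscle array 1, and Col9a3 at -2.51 without WT muscle array 2 (adjusted p = 0.00586 and 0.0408 in limma). Probes near the bottom of the scale limit fold sizes.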

Other observations

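A probe of Zfp534, a zinc finger gene, that was not the one chosen for its gene lay below the intensity limit and passed when all probes were tested (difference 3.63 ± 0.34, SE, adjusted p = 0.00252 in limma). It read 3.28 in KO brain and 3.13 in WT brain on average, and 3.03 in KO muscle and 31.66 in WT muscle. Without KO muscle array 2, Slc13a5, a citrate transporter, passed for the difference at -4.16 (adjusted p = 0.0498 in limma), and without KO muscle array 3, Krt17, an epidermal keratin, did so at -3.88 (adjusted p = 0.0122 in limma). These genes were chosen after their values were seen.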
